A study of Mus musculus with 6 samples.

Results

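The phagocyte NADPH oxidase was followed through 5 of its subunit genes, Cybb, Cyba, Ncf1, Ncf4 and Rac2, in macrophages sorted from liver tumours. The members are the genes of these symbols among the 19938 genes measured by a probe set with exactly 1 gene symbol, and all 5 were found, each on 1 probe set. The 6 arrays (Affymetrix Mouse Gene 1.0 ST) hold total RNA of tumour-associated macrophages from C57BL/6 mice whose livers carried implanted tumours of the mouse hepatoma line hepa1-6. There were 3 arrays from mice treated with PLX3397, a small molecule that blocks the receptor kinases CSF1R, KIT and FLT3, and 3 from vehicle-treated mice. The titles call the arrays of a group biological replicates, and the labels state no dose, duration, age or sex and do not tell whether each array was a separate animal. What the p-values reflect is the spread among these arrays alone. The description field adds the name M(IL4) to the PLX3397 arrays and M(LPS+IFNγ) to the vehicle arrays, which goes against their titles and treatment labels, so grouping ignored it.

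The phagocyte oxidase moves electrons from NADPH in the cytosol across a membrane onto oxygen and makes superoxide, which phagocytes use against ingested microbes and in signalling. Its membrane part is a flavocytochrome of a catalytic chain (Cybb) and a smaller partner chain (Cyba), and in phagocytes each chain helps to stabilise the other. On activation cytosolic subunits such as the organiser (Ncf1) and Ncf4 move to the membrane together with a Rac GTPase such as Rac2.

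The members did not move as a block. In PLX3397 macrophages the transcript of the catalytic chain Cybb was lower, those of its partner Cyba and of the cytosolic subunit Ncf4 were higher, and neither Ncf1 nor Rac2 passed the threshold. The test was limma's moderated fit over all 19938 genes, with a Benjamini-Hochberg adjusted p of 0.05 as the threshold. Changes are PLX3397 minus vehicle in log2 units, with the standard error (SE) of that fit. Of the 5 members 2 were higher, 1 was lower and 2 did not pass. This stands against 37.8% of all genes past the threshold, 19.6% higher and 18.3% lower. That share takes in genes under the background level given below, above which all 5 members lay on all 6 arrays. The median change was 0.15 over the members and 0.04 over all genes. The share of calls that were higher depended on scaling, at 51.7% as deposited and 30.6% with centring of every array on its median, which moved the median of all genes to -0.09.

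The sequence around the start of a gene was at hand for 3 of the 5 members. These stretches are shown because the catalytic chain and its partner moved in opposite directions. They are from RefSeq, build GRCm38.p6, each 280 bases written 5′ to 3′ in the direction of the gene, from 250 bases before the annotated start to 30 bases from it. Capitals mark every match to 5 motifs searched on both strands, which are GAGGAA (the core bound by PU.1, the product of Spi1), CCAAT (NF-Y), GGGCGG (GC box), a STAT6-type motif (TTC and GAA with any 4 bases between) and an IRF-type motif (GAAA and GAAA with any 2 bases between). Cybb lies at chrX:9469295-9469574 on the minus strand, Cyba at chr8:122432911-122433190 on the minus strand and Ncf1 at chr5:134229596-134229875 on the minus strand.
Cybb: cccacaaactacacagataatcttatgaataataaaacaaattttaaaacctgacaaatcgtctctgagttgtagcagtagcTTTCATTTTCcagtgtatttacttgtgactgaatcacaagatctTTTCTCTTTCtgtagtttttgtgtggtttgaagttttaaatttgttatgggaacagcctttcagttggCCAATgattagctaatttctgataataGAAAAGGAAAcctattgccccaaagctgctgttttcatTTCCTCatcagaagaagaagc
Cyba: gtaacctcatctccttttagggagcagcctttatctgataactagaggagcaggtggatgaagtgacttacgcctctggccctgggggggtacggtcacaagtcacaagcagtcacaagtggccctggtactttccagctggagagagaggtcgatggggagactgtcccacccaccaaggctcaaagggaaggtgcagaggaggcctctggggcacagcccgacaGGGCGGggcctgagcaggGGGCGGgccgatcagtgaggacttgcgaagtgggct
Ncf1: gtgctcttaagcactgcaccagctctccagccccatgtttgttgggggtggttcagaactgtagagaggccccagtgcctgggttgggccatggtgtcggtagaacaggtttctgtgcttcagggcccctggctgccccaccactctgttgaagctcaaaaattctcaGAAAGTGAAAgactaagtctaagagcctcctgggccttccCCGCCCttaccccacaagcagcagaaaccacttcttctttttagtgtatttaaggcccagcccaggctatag

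The Cybb window held 1 match to GAGGAA, on the opposite strand from 10 to 15 bases after the start (the start base is 1), and 3 matches to the IRF-type motif. It also held 1 CCAAT match, 56 to 52 bases before the start (-56 to -52). The Cyba window held none of these and 2 GC boxes, at -24 to -19 and -6 to -1. The Ncf1 window held 1 GC box and 1 IRF-type match. No match to the STAT6-type motif was present in the 3 windows, and the matches shown do not overlap each other. Among 32851 start regions of the same length, 26.0% held GAGGAA, 36.1% CCAAT, 34.7% GGGCGG, 6.5% the STAT6-type and 3.28% the IRF-type motif. A match is a stretch of letters and does not show that a factor was bound there. Whether the motifs bear on the changes of the members was not tested.

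**Figure D1:**
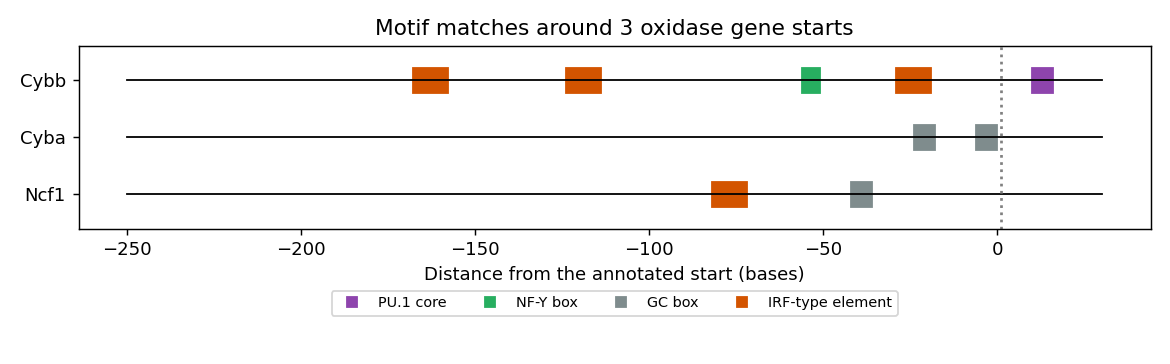
Positions of motif matches in the 280-base windows of Cybb, Cyba and Ncf1, on an axis of bases from the annotated start (dotted line). Cybb carries 3 IRF-type elements, a PU.1 core and an NF-Y box. Among the motifs searched Cyba carries only GC boxes, and Ncf1 carries a GC box and an IRF-type element.

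Cybb encodes the chain that carries the haem and flavin groups and passes the electrons. Its log2 values were 11.63, 11.43 and 11.48 on the PLX3397 arrays, against 12.19, 12.26 and 12.15 on the vehicle arrays. Every PLX3397 array lay below every vehicle array, with a gap of 0.52 between the groups. The mean was 11.51 ± 0.10 with PLX3397 and 12.20 ± 0.06 with vehicle (SD, n = 3 each), a change of -0.69 (SE 0.09, limma adjusted p = 0.000109). This is a level 1.61-fold lower (95% interval 1.41 to 1.84), and 86.2% of genes changed by less in size.

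Cyba encodes the partner chain, which anchors the organiser subunit at the membrane. Its log2 values were 11.25, 11.25 and 11.26 on the PLX3397 arrays, against 10.51, 10.33 and 10.55 on the vehicle arrays. The PLX3397 arrays were nearly equal to each other and lay 0.70 above the highest vehicle array. The mean was 11.25 ± 0.01 with PLX3397 and 10.46 ± 0.11 with vehicle (SD, n = 3 each), a change of 0.79 (SE 0.08, limma adjusted p = 3.66e-05) or 1.73-fold (95% interval 1.52 to 1.97). By size this exceeded the change of 88.8% of genes.

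Ncf4 encodes a cytosolic subunit that binds a phosphoinositide of phagosome membranes. Its log2 values were 10.16, 10.34 and 10.13 on the PLX3397 arrays, against 9.83, 9.75 and 9.79 on the vehicle arrays. The groups were 0.30 apart, with PLX3397 replicate 2 the highest array. The change was 0.42 (SE 0.09, limma adjusted p = 0.00284), or 1.34-fold.

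Ncf1 encodes the organiser, whose phosphorylation starts the assembly. Its log2 values were 10.64, 10.76 and 10.53 on the PLX3397 arrays, against 10.49, 10.45 and 10.52 on the vehicle arrays. The lowest PLX3397 array was only 0.01 above the highest vehicle array. The change of 0.15 (SE 0.09, 95% interval -0.04 to 0.34) did not pass the threshold (limma adjusted p = 0.195), and the interval leaves room for a rise of up to 1.27-fold. It was 0.02 with quantile normalisation and 0.02 with centred arrays.

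Rac2 encodes a small GTPase that can switch the assembled complex on. Its log2 values were 11.26, 11.36 and 11.31 on the PLX3397 arrays, against 11.45, 11.48 and 11.38 on the vehicle arrays. The groups came within 0.02 of each other, with all PLX3397 arrays on the low side. The change of -0.13 (SE 0.08, 95% interval -0.30 to 0.05, limma adjusted p = 0.233) did not pass as deposited, but it passed at -0.43 with quantile normalisation (adjusted p = 0.000757) and at -0.26 with centred arrays (adjusted p = 0.0214). The 374 genes with a mean level of 10 or above had a median change of 0.10 as deposited, -0.09 with quantile normalisation and -0.03 with centred arrays. Cybb was lower and Cyba and Ncf4 were higher, each past the threshold, under these same scalings.

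**Figure D2:**
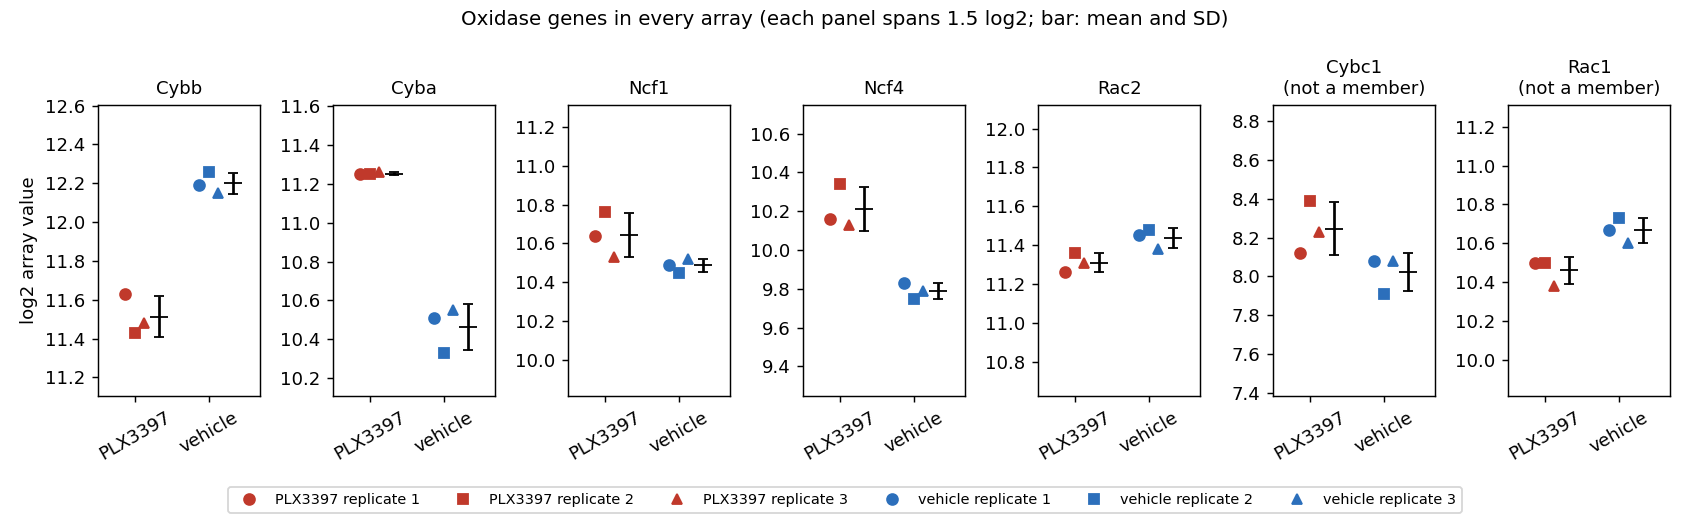
The log2 array value (vertical axis, a span of 1.5 in every panel) of the 5 members and of Cybc1 and Rac1 on each of the 3 PLX3397 and 3 vehicle arrays, with mean and SD as a bar. PLX3397 arrays lie well below vehicle arrays for Cybb and above them for Cyba and Ncf4, and the groups nearly touch for Ncf1 and Rac2.

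The values of the 2 groups did not overlap for any of the 5 members, a pattern that 49.3% of all genes showed. An exact two-sided permutation test of each member gave p = 0.1, the smallest that 3 arrays against 3 allow. Over 14 alternative settings Cybb (-0.90 to -0.65), Cyba (0.61 to 0.83) and Ncf4 (0.29 to 0.46) kept their sign and passed the threshold in all 14. Only rescaling, array weights or leaving out 1 array can alter a member's change, and the other settings act on its p-value alone. Ncf1 (0.02 to 0.21) passed in 0 and Rac2 (-0.43 to -0.10) in 2. PLX3397 replicate 3 stood apart from the other arrays of its group on the second principal component (7.01% of the variance). Without it the changes were -0.67 for Cybb, 0.79 for Cyba, 0.46 for Ncf4, 0.21 for Ncf1 and -0.13 for Rac2, with limma adjusted p of 0.00034, 0.000105, 0.00316, 0.0993 and 0.312 in that order.

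**Figure D3:**
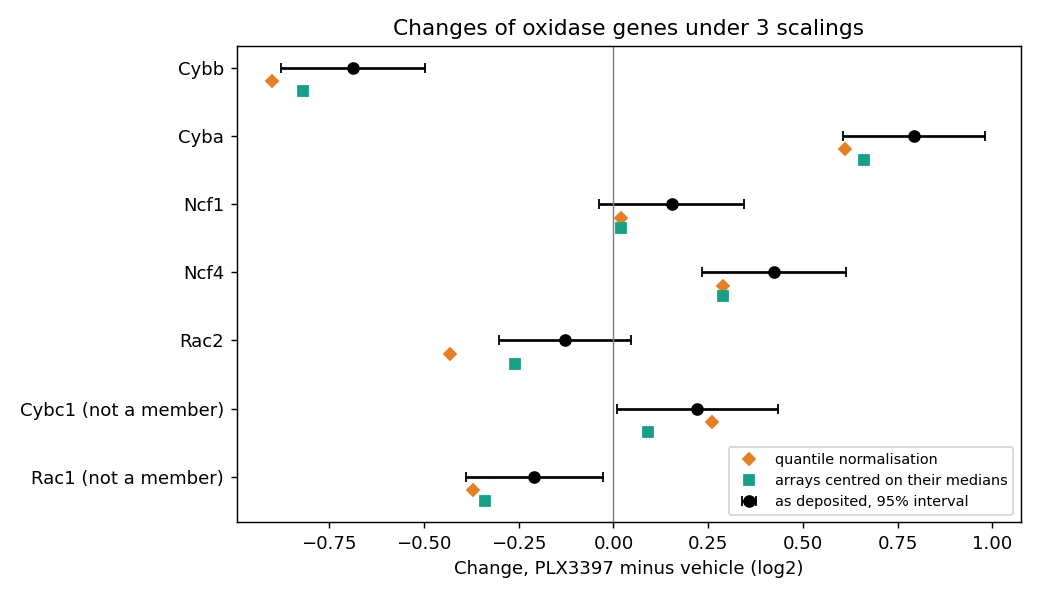
Change in log2 units, PLX3397 minus vehicle (horizontal axis), of the 5 members and of Cybc1 and Rac1, as deposited with the 95% interval of the limma fit and after each of the other scalings. Cybb stays below 0 and Cyba and Ncf4 stay above 0 in all 3, while Rac2 is at -0.13 as deposited and at -0.43 with quantile normalisation.

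Ratios between members within an array do not depend on how the arrays were scaled against each other by a constant. The log2 ratio of Cybb over Cyba was 0.38, 0.18 and 0.22 on the PLX3397 arrays, against 1.68, 1.93 and 1.60 on the vehicle arrays. Each such value mixes the response of different probes, so only its shift between groups carries meaning. That shift was -1.48, with the ratio at 0.26 ± 0.11 in PLX3397 and 1.74 ± 0.17 in vehicle (SD, n = 3 each; exact permutation p = 0.1, the smallest possible, and 0.1 when adjusted over the 10 pairs). Cyba also gained on Rac2 by 0.92, on Ncf1 by 0.64 and on Ncf4 by 0.37. Among the cytosolic subunits Ncf1 lost 0.27 against Ncf4. The exact permutation p was 0.1 for each of the 10 pairs, which share members and are not independent.

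By the root-mean-square distance between centred profiles over the 6 arrays, the genes most like each member were sought among 12164 others above background on every array. Background was set on each array at the 95th percentile of 1190 receptor genes for odours and pheromones, and lay between 3.52 and 3.58. The profile of Cybb was nearest to those of Hspa4 (0.032), Ttc3 (0.042) and Evi5 (0.042), and that of Cyba to those of Mtch1 (0.024), Deptor (0.034) and Wdyhv1 (0.040). Ncf4 was nearest to Smdt1 (0.015), Alkbh5 (0.018) and Ggn (0.021). Ncf1 was nearest to Fam50a (0.015), Nlrp3 (0.017) and Marchf8 (0.018), and Rac2 to Atp2a2 (0.022), Ankrd40 (0.024) and Cfl1 (0.025). These distances describe 6 arrays in 2 groups.

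Other genes that act on the assembly or working of the oxidase went both ways. Of 9 measured assembly genes 2 were higher and 3 lower with PLX3397, with a median change of -0.15 against 0.04 over all genes. The share called was 55.6%, against 37.8% of all genes. All 9 were above background on all 6 arrays, whereas the share over all genes takes in genes under background. Of the 19938 genes, 13412 to 13833 were above it on an array. With the test kept to genes above background on 3 or more arrays, 3812 were higher and 3573 lower. The same limit holds for the shares of the lists below. Hvcn1, the proton channel that balances the charge moved by the oxidase, had the largest change at 1.37 (10.69 ± 0.14 with PLX3397 and 9.33 ± 0.08 with vehicle, limma adjusted p = 1.99e-06). Nrros, which in mice lowers the amount of the Cybb protein, was higher by 0.62 (adjusted p = 0.00109). Rap1b and Rap1a, small GTPases of which Rap1a co-purifies with the flavocytochrome, fell by 1.00 and 0.51, and Prkcb, a kinase that phosphorylates the organiser, fell by 0.95.

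Cybc1 encodes a chaperone without which the Cybb and Cyba chains are not made stably. Its log2 values were 8.12, 8.39 and 8.23 on the PLX3397 arrays, against 8.08, 7.91 and 8.08 on the vehicle arrays. The change of 0.22 (SE 0.10, adjusted p = 0.0968) did not pass as deposited and passed in 1 of 14 alternatives, quantile normalisation (0.26, adjusted p = 0.0409). Rac1, the widely expressed relative of Rac2, was at 10.50, 10.50 and 10.38 with PLX3397, against 10.67, 10.73 and 10.60 with vehicle. All its PLX3397 arrays lay lower, and the change of -0.21 (adjusted p = 0.0682) passed in 3 of 14 alternatives, at -0.37 with quantile normalisation and -0.34 with centred arrays, and with a variance trend (adjusted p = 0.0236). Rac1 and Rac2 are similar in sequence, and probes can share signal between such genes.

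The oxidases of other tissues were near or under background. Of 9 such genes (Nox1, Nox3, Nox4, the Duox genes and their partners) 5 were above background on no array and 2 on all 6. Duoxa2, a maturation factor, was the 1 gene called higher (11.1% of the list, limma adjusted p = 0.0210), at 3.16 ± 0.09 with PLX3397 and 2.83 ± 0.14 with vehicle, values under background on every array. That call ended with centred arrays and without PLX3397 replicate 1, vehicle replicate 2 or vehicle replicate 3, and 2 genes of the list were higher without PLX3397 replicate 2.

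Genes that load Rac with GTP or restrain it changed in both directions. Of 12 measured, 3 were higher and 7 lower (83.3% called against 37.8% of all genes), with a median of -0.38. Of the 12, 11 were above background on all 6 arrays. Tiam1, an exchange factor for Rac, rose by 2.16 (6.53 ± 0.18 with PLX3397 and 4.37 ± 0.40 with vehicle, limma adjusted p = 6.55e-06). Vav3, an exchange factor downstream of immune receptors, fell by 1.00, and Elmo1, which works with Dock proteins on Rac, fell by 1.02. The Rac-inactivating genes split, as Arhgap15 fell by 1.17 and Arhgap25 rose by 1.02. Arhgap15 was above background on only 2 of the 3 PLX3397 arrays (3.65 ± 0.11 with PLX3397 and 4.82 ± 0.11 with vehicle), so the size of its fall is limited by the background.

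Of 13 measured receptors and adaptors that set the oxidase off or restrain it, 6 were higher and 3 lower. The share called was 69.2%, against 37.8% of all genes, and the median change was 0.00. All 13 were above background on all 6 arrays. Among the higher genes was Fcgr2b (0.56), an inhibitory Fc receptor. Clec7a, the beta-glucan receptor dectin-1, rose by 2.89 (10.70 ± 0.16 with PLX3397 and 7.81 ± 0.07 with vehicle, limma adjusted p = 1.77e-08). The Fc receptor Fcgr3 rose by 1.67, and the chains of the complement receptor integrin, Itgam and Itgb2, rose by 0.97 and 0.89. Another Fc receptor, Fcgr1, fell by 0.79, and Fcer1g, a signalling chain of such receptors, fell by 0.52. Pik3cg, a lipid kinase downstream of chemoattractant receptors, fell by 1.12. The kinase gene Syk, which relays signals of dectin-1 and Fc receptors, was at 9.97 ± 0.06 with PLX3397 and 9.97 ± 0.02 with vehicle.

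Enzymes that make NADPH or belong to the pentose phosphate pathway showed 2 rises and 3 falls among 8 measured. The share called was 62.5%, against 37.8% of all genes, and the median change was -0.02. All 8 were above background on all 6 arrays. G6pdx, an NADPH-producing enzyme of that pathway, was not among the genes measured. Idh1, the cytosolic isocitrate dehydrogenase, rose by 1.26 and Pgd, an NADPH-producing step of the pentose phosphate pathway, rose by 0.81. Pgls and Rpe, other enzymes of that pathway, fell by 0.61 and 0.57. Me1, the malic enzyme, was lower by 0.65 (limma adjusted p = 0.0492) with overlapping groups. Its call ended in 7 of 14 alternatives, which were quantile normalisation, robust variance, and leaving out PLX3397 replicate 1, PLX3397 replicate 2 or any 1 of the vehicle arrays.

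Enzymes that remove superoxide and peroxide showed 3 rises and 4 falls among 11 measured, with a median of -0.03. The share called was 63.6%, against 37.8% of all genes, and 10 of the 11 were above background on all 6 arrays. The peroxide-reducing enzymes Gpx1 and Prdx1 rose by 1.56 and 0.68. Sod2, which converts superoxide in mitochondria, fell by 0.62 (11.04 ± 0.12 with PLX3397 and 11.66 ± 0.01 with vehicle). Txn1, the thioredoxin that recharges peroxiredoxins, fell by 0.62 and the mitochondrial Prdx3 by 0.58.

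Transcription factors known to act on oxidase genes showed 5 rises and 3 falls among 11 measured, with a median of 0.13. The share called was 72.7%, against 37.8% of all genes, and 9 of the 11 were above background on all 6 arrays. Irf8, a partner of PU.1 at the human CYBB gene, rose by 0.85 (9.05 ± 0.20 with PLX3397 and 8.20 ± 0.05 with vehicle, limma adjusted p = 9.92e-05), and Irf1, the interferon-induced factor, fell by 0.79 (adjusted p = 0.000299). The myeloid factors Cebpe and Cebpb rose by 0.67 and 0.63, and Elf1, an ETS factor, fell by 0.53. Spi1, which encodes PU.1 and was added because its motif was searched, was lower by 0.32 (adjusted p = 0.00903). Cybb itself, whose window held the PU.1 core and the IRF-type matches, was lower, and no test linked the factors to it.

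**Figure D4:**
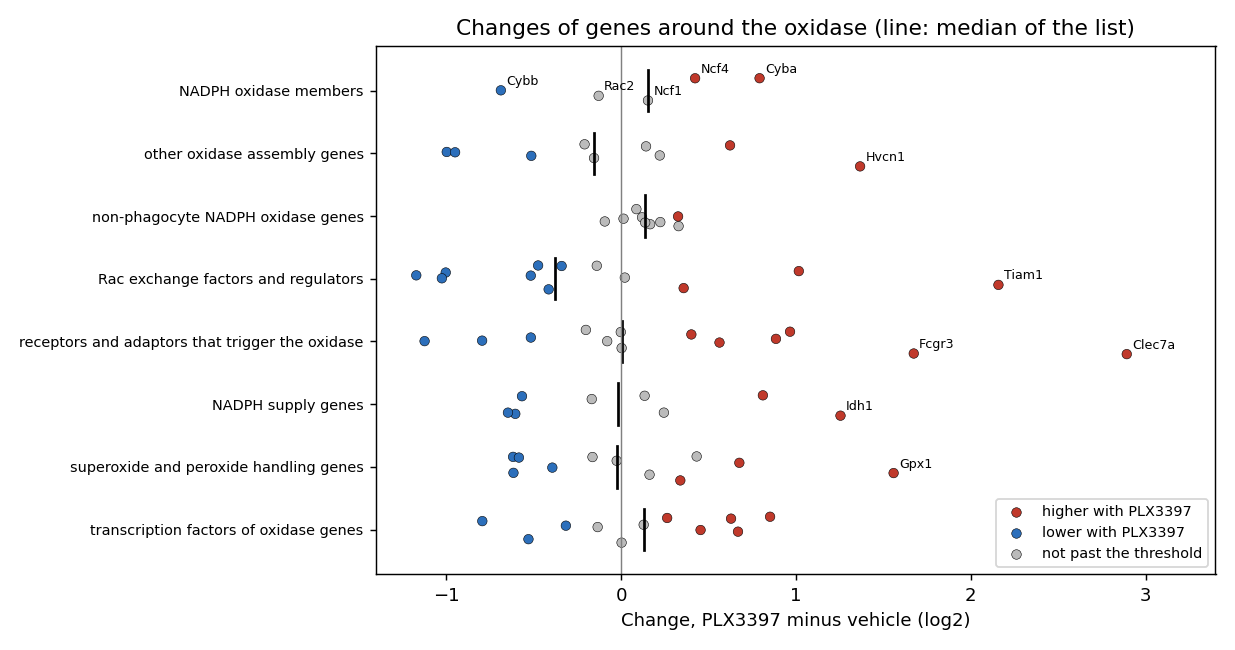
Change in log2 units, PLX3397 minus vehicle (horizontal axis), of each measured gene in the oxidase lists, coloured by whether it passed the threshold, with the median of each list as a line. The largest rises are those of Clec7a (2.89), Tiam1 (2.16) and Fcgr3 (1.67), and the members spread from -0.69 for Cybb to 0.79 for Cyba.

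Neutrophils and B cells also carry this oxidase, so markers of other cells were read beside the members. Over all genes 37.8% were called. The share called was 62.5% for macrophage, 46.2% for neutrophil, 75.0% for B cell and 37.5% for dendritic cell markers. It was 66.7% for endothelial, 14.3% for hepatocyte and hepatoma, and 40.0% for fibroblast markers. For T and NK cell markers it was 0.0%, and for eosinophil, basophil and mast cell markers 25.0%. All 8 macrophage markers were above background on all 6 arrays, and their summed level (log2 of the sum of linear values) was 14.37 to 14.48 with PLX3397 and 14.33 to 14.35 with vehicle. Of these markers 2 were higher, Itgam (0.97) and Cd14 (0.55), and 3 were lower, Fcgr1 (-0.79), Adgre1 (-0.42) and Mertk (-0.37). The summed level of 13 neutrophil markers was 12.88 to 13.18 with PLX3397 and 11.80 to 11.84 with vehicle, with 5 higher and 1 lower (3 higher and 2 lower with centred arrays, and 3 higher with the filter on background and without PLX3397 replicate 3 or vehicle replicate 2). Its brightest genes by the mean over the 6 arrays were Mmp9 (11.98 with PLX3397 and 11.37 with vehicle), Mmp8 (11.68 with PLX3397 and 6.20 with vehicle) and Csf3r (7.76 with PLX3397 and 9.32 with vehicle). S100a8 was at 8.74 with PLX3397 and 7.22 with vehicle (change 1.52, limma adjusted p = 0.000222). S100a9 was at 4.36 with PLX3397 and 4.03 with vehicle and did not pass as deposited (limma adjusted p = 0.115). Neither did Camp (-0.19) or Mpo (0.16). Of the neutrophil markers 6, Ly6g, Elane, Ltf, Ngp, Cxcr2 and Retnlg, were above background on no array. Of 4 B cell markers 3 were higher (1 with the filter on background), with a summed level of 6.05 to 6.20 with PLX3397 and 5.70 to 5.80 with vehicle, and Cd79a and Ms4a1 were above background on no array. Summed levels of the 8 dendritic cell markers were 10.82 to 11.23 with PLX3397 and 8.18 to 8.37 with vehicle. Of these 3 were higher, Ccr7 (3.35), Itgax (3.04, the brightest) and Zbtb46 (0.39), and 0 were lower. Flt3, not past the threshold as deposited, passed in 5 of 14 alternatives. Xcr1, Clec9a and Siglech were above background on no array. Of 6 endothelial markers 4 were higher (summed level 8.67 to 8.72 with PLX3397 and 7.18 to 7.31 with vehicle). Of 7 hepatocyte and hepatoma markers 1 was higher, Trf (11.30 with PLX3397 and 8.45 with vehicle), while Alb and Ttr were above background on no array. Leaving out PLX3397 replicate 1 gave 2 higher hepatocyte and hepatoma markers, and 1 was lower with quantile normalisation or centred arrays. Of 7 T and NK cell markers 5 were above background on no array. Of 5 fibroblast markers 2 were lower (1 with quantile normalisation and without PLX3397 replicate 1, PLX3397 replicate 2, vehicle replicate 2 or vehicle replicate 3), and Dcn, 0.95 higher but not past the threshold, passed in 4 of 14 alternatives. Of 8 eosinophil, basophil and mast cell markers 1 was higher, Siglecf (0.44), and 1 lower, Ccr3 (-2.25), while 3 were lower with centred arrays. Ccr3 was at 5.82 with vehicle and at 3.57 with PLX3397, above background on only 2 of the 3 PLX3397 arrays. The summed level of these 8 markers was 6.47 to 6.50 with PLX3397 and 6.81 to 7.24 with vehicle. The part of these cells in the members' changes was not tested, and in bulk RNA fewer cells of a type and less RNA per cell cannot be told apart.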

How the data were processed

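For each of the 6 arrays the deposited table holds log2 values, 1 for every probe set. How the authors summarised and normalised them is not given in the sources used here, and the submitters' processing notes name MAS5 without a role. The log2 unit was read from the values (1.57 to 13.47). Array medians were 4.32 to 4.35 with PLX3397 and 4.21 to 4.25 with vehicle, within the 0.5 allowed before quantile normalisation, so the deposited values were used. Batches could not be tested, since scanner files were not used here. Of 28941 probe sets, 21789 had exactly 1 symbol in the platform annotation, 1621 several and 5531 were unnamed here. The brightest probe set over the 6 arrays stood for a gene, which mattered for 999 genes.

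Groups and replicate numbers came from the titles. The fit used limma 3.58.1 under R 4.3.3 (group only, two-sided) on all 19938 genes and adjusted over all of them, and the fit was tested on simulated data. The number of arrays limits the precision. The members and lists were chosen with earlier results of these data known. Genes named are the members, Cybc1 and Rac1, and up to 5 genes with the largest called change in each oxidase list. The 3 nearest profiles per member and the brightest neutrophil and dendritic cell markers were also named. In the other marker lists the brightest genes were not all named. Syk was singled out as not past the threshold. Spi1, S100a8, S100a9, Camp, Mpo, Dcn, Fcgr2b, Fcer1g and Flt3 were named after their values were seen. So were Siglecf, Ccr3, the called macrophage markers and the markers below background.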

Additional observations from a re-analysis of the deposited data

How the results depend on the processing

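The changes of Cybb, Cyba and Ncf4 kept their direction and stayed past the threshold in 14 of 14 alternatives, and Ncf1 stayed short of it in all 14. Some of the 14 leave a member's change as it is and act on its p-value alone. Rac2 passed as lower with quantile normalisation (-0.43) and with centred arrays (-0.26), so that 2 members were lower in each of these settings. In the list of other assembly genes 5 were lower with quantile normalisation, with centred arrays and with a variance trend, against 3 as deposited. Among oxidases of other tissues 0 were higher with centred arrays or with the filter on background, and 0 to 2 when 1 array was left out. Over all genes 2282 were higher and 5169 lower with centred arrays, against 3900 and 3639 as deposited. The shifts of the 10 within-array ratios were rerun only with probe sets averaged and with 1 array left out. Averaging could not alter them, since each member has 1 probe set. Leaving out 1 of 3 arrays always moves a group mean by less than the spread within that group. These runs therefore could not show whether the shifts depend on the processing. With 1 array left out the shift of Cybb over Cyba lay between -1.55 and -1.38. The causes of the differences in calls between settings were not tested. Same-numbered arrays of the groups did not deviate together (correlations of deviations -0.01, 0.008 and -0.013, with 0 of 3 PLX3397 arrays closest to their own number), so they share only a number. With the replicate number as a block 3646 genes were higher and 3508 lower, against 3900 and 3639 without it, and the changes were -0.69 for Cybb, 0.79 for Cyba, 0.42 for Ncf4, 0.15 for Ncf1 and -0.13 for Rac2, with no member's call changed. Leaving out 1 array gave 3124 to 3776 genes higher and 3208 to 3601 lower. With 3 arrays a group, a small change such as that of Ncf1 is not resolved.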
